A study of Mus musculus with 18 samples.

Results

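The 46 RNAs described here are 5′ fragments of nuclear tRNAs other than those for glycine and glutamate, out of 193 tRNA-derived small RNAs (tsRNAs) listed in mouse lung. They were chosen by name: the types tRF-5b, tRF-5c and tiRNA-5, with no mitochondrial, Gly or Glu parent. They came from 11 parent kinds: 9 fragments of tRNA-Lys, 8 of tRNA-Asp, 7 of tRNA-His, 6 of tRNA-Val, 4 each of tRNA-Ala and tRNA-Pro, 3 of initiator tRNA-Met (iMet), 2 of tRNA-Cys and 1 each of tRNA-Leu, tRNA-Arg and the selenocysteine tRNA (SeC). By type they were 2 tRF-5b, 28 tRF-5c and 16 tiRNA-5. The listed Gly and Glu fragments of these types numbered 53 and the mitochondrial ones 27.

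The study asked how mesenchymal stem cells alter small RNAs and messenger RNAs in mice modelling chronic obstructive pulmonary disease (COPD), with 3 small RNA libraries of lung tissue in each of 3 groups. The BMSC group was exposed to cigarette smoke, injected intraperitoneally with cigarette smoke extract, and given 4000000 BMSCs, the labels' name for the injected cells, in 100 µl of phosphate-buffered saline (PBS) by tail vein. The COPD group was the same smoke model given PBS without cells, and the control group received PBS only. The labels give no strain, sex or age, no source of the cells, and nothing on whether each library is a separate mouse, so p-values measure the spread between libraries, which may be technical. In whole lung RNA, a fragment made in fewer cells and less fragment per cell cannot be told apart.

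A transfer RNA carries an amino acid to the ribosome and reads the codon with the anticodon, which sits in a loop near its middle. Nucleases cut tRNAs in or near that loop, angiogenin during stress being the best known, and leave a 5′ piece and a 3′ piece, and the 5′ piece is called tiRNA-5. Shorter fragments of the 5′ side, cut before the loop, are the tRF-5 classes. In human cells, such 5′ pieces of tRNA-Ala and tRNA-Cys that begin with a run of guanines are known to hold back translation.

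The sequences are written 5′ to 3′ with T for U, as deposited. The first set is shown because tRNA-Lys gave most of the reads, and because its parents differ at only 3 positions before the anticodon, in capitals:
tRF-1:32-Lys-CTT-2: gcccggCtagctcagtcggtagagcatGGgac
tiRNA-1:34-Lys-CTT-2: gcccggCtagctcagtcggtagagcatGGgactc
tRF-1:32-Lys-CTT-3: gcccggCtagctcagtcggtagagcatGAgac
tiRNA-1:34-Lys-CTT-3: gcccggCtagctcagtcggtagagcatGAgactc
tRF-1:32-Lys-TTT-1: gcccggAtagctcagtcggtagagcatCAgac
tiRNA-1:34-Lys-TTT-1: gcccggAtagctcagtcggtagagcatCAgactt
In these names 1:32 gives the first and last tRNA base held, CTT is the anticodon as DNA, the number after it is the gene family member, and a suffix such as M2 marks several matching tRNAs. Counting from 1 at the 5′ end, the CTT-3 and CTT-2 tiRNA-5 differ by A29G alone, and the TTT-1 and CTT-3 fragments of 32 nucleotides (nt) differ by A7C and C28G.

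The second set shows tiRNA-5 named below, with the first anticodon base, where each ends, in capitals:
tiRNA-1:35-Leu-TAG-3: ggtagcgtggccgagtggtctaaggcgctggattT
tiRNA-1:34-Val-AAC-1: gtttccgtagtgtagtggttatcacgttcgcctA
tiRNA-1:34-Val-CAC-2: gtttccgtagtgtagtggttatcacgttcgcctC
tiRNA-1:34-Val-TAC-1: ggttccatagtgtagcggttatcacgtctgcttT
tiRNA-1:36-SeC-TCA-1: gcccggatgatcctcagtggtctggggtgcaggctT
tiRNA-1:33-iMet-CAT-1-M2: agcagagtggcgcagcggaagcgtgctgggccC
tiRNA-1:34-His-GTG-2: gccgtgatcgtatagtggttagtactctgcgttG
tiRNA-1:33-Pro-CGG-1: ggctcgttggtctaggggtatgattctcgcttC
tiRNA-1:33-Pro-TGG-2: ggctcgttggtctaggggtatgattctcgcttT
The Val-AAC-1 and Val-CAC-2 tiRNA-5 differ by A34C only, and the Pro-CGG-1 and Pro-TGG-2 tiRNA-5 by C33T only, so in each pair the last base alone tells the parents apart. With the mismatch settings unknown, members of such 1-base pairs, the Lys-CTT ones included, may share reads.

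The third set shows tiRNA-5 with the 5′ guanine run, in capitals:
tiRNA-1:33-Ala-CGC-2: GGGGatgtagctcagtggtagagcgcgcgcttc
tiRNA-1:33-Cys-GCA-1-M3: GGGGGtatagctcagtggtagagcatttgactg
A run of at least 4 guanines at the 5′ end was held by 4 of the 46 fragments, the 2 of Ala-CGC-2 and the 2 of Cys-GCA-1, and by 4 of all 99 listed nuclear 5′ fragments (4.04%).

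The deposited values were raw read counts and reads scaled to the library total (CPM). Library totals ran from 893028 to 2679933 reads, and the 46 fragments took 15183 to 45203 counts per library. No fragment had a count of 0, and 6 of the values were 3 counts or fewer. A floor of 3 counts was 1.12 to 3.36 CPM, which covers counting error only. A mean over all 9 libraries under 100 CPM was found for 33 fragments and over 1000 CPM for 3. Among the mRNA libraries, all 9 lung markers examined were detected in each, including surfactant protein C (Sftpc) at 614 to 3249 FPKM, which is scaled to transcript length and library size.

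In 3 libraries, COPD 3, BMSC 2 and control 2, the listed tsRNAs made up 42.6% to 49.3% of the library, against 58.6% to 70.6% in the other 6. These were also the 3 smallest libraries. In them the 46 fragments took 3.45% to 5.07% of the listed counts, against 1.97% to 3.14% in the other 6, and the tiRNA-5 share was higher too. Each group holds 1 of these libraries, so results are also given without all 3, an alternative chosen after seeing the data. What sets them apart was not tested.

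By parent, tRNA-Lys fragments held 82.1% of the counts of the 46, between 77.6% and 91.9% in single libraries. The others followed far below, with 4.97% from tRNA-His, 4.71% from tRNA-Val, 2.18% from tRNA-Ala, 2.11% from tRNA-Asp, 1.71% from tRNA-Pro and 1.11% from tRNA-iMet. tRNA-Leu, tRNA-Cys, SeC and tRNA-Arg gave 0.435%, 0.333%, 0.206% and 0.133%. The order of neighbours such as His and Val, or Ala and Asp, was not the same in all libraries, since their ranges overlapped: 1.47% to 7.32% for His against 2.26% to 7.06% for Val.

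The fragments' 3′ ends fell at few places, but the fragments were chosen by type and each type had its own ends. These places go with the naming classes and are not an independent finding on where tRNAs are cut. All 16 tiRNA-5 ended on the first base of the anticodon, at position 33 to 36 according to the parent, and held 74.5% of the counts. The other 30 ended before the anticodon. Among the tRF-5c, ends lay 6 to 1 bases before that base, most often 2 bases before it, where 9 fragments held 15.1% of all counts. Both tRF-5b were 23 nt long and held 2.74%. In length, 34 nt alone carried 73.1% of the counts and 32 nt carried 16.1%. A single parent tRNA matched 28 of the fragments, and 18 matched several.

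The lysine fragments differed in length by parent although their sequences nearly coincide. The Lys-CTT-2 tiRNA-5 had 7349, 12696 and 4856 CPM in BMSC, 6374, 7447 and 5465 CPM in COPD, and 5202, 7948 and 6539 CPM in control libraries. The Lys-CTT-3 tiRNA-5 had 3636, 6964 and 4052 CPM in BMSC, 5198, 5534 and 7071 CPM in COPD, and 3979, 6637 and 4290.4 CPM in control libraries. Together these tiRNA-5 made up 64.2% to 86.6% of the counts of the 46 fragments.

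The 32-nt Lys-CTT-3 fragment had 1420.2, 744 and 1169 CPM in BMSC, 1506, 1504 and 1002 CPM in COPD, and 1516, 807 and 1599 CPM in control libraries. It was lowest in the 3 libraries of low listed share. The 34-nt tiRNA-5 outnumbered the 32-nt fragment 65.6 to 244 times for Lys-CTT-2 (median 127) but 2.56 to 9.35 times for Lys-CTT-3 (median 3.46), so the ranges did not overlap over the 9 libraries. Lys-TTT-1 ran the other way, with the 32-nt fragment 4.11 to 220.0 times as frequent as the tiRNA-5. The upper end of that range rests on 3 counts of the tiRNA-5 in BMSC 1.

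Against the groups, the summed Lys fragments averaged 14693 ± 5491 CPM in BMSC, 14173 ± 823 CPM in COPD and 13364 ± 2286 CPM in control libraries (SD, n = 3 each). Log2 changes of the sum were 0.18 ± 0.38 (SE) for COPD over control, 0.14 ± 0.38 for BMSC over COPD and 0.33 ± 0.38 for BMSC over control. None passed edgeR's quasi-likelihood test over 46 summed classes, with adjusted p of 0.938, 0.886 and 0.950. Of all 46 classes, 2.17%, 10.9% and 0.0% were called in these comparisons. The change of the Lys sum was -0.20 for COPD over control without control 3, and -0.01 for BMSC over COPD without BMSC 2.

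The members of tRNA-His are written from the first encoded base, before which the mature tRNA carries an added guanine. The commonest, the 31-nt His-GTG-2 fragment, had 232, 143 and 535 CPM in BMSC, 372, 302 and 320.3 CPM in COPD, and 328, 127 and 247 CPM in control libraries. BMSC 3 stood highest. There the 31-nt fragment was 3.09 times as frequent as the 32-nt one, against 0.570 to 1.81 times in the other 8 libraries. For BMSC over control the log2 change was 0.66 ± 0.62 (edgeR adjusted p = 0.986), and it was -0.33 without BMSC 3. The His-GTG-2 tiRNA-5 had 44.2, 25.2 and 48.3 CPM in BMSC, 81.9, 120.5 and 61.6 CPM in COPD, and 62.0, 44.1 and 97.0 CPM in control libraries.

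tRNA-Val gave fragments of several lengths. The 23-nt Val-AAC-1-M4 fragment, which matches 4 tRNAs and differs from the 23-nt Gly-ACC-1 fragment by T22G alone, had 246, 287 and 331 CPM in BMSC, 377, 330.0 and 322 CPM in COPD, and 355, 351 and 885 CPM in control libraries. The BMSC values lay below the control values, with control 3 far above the rest. The log2 change was -0.61 ± 0.58 (edgeR adjusted p = 0.986).

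The Val tiRNA-5 were uneven among controls. The Val-AAC-1 tiRNA-5 had 14.1, 21.5 and 19.6 CPM in BMSC, 39.3, 37.1 and 89.6 CPM in COPD, and 20.8, 189 and 25.4 CPM in control libraries. The Val-CAC-2 tiRNA-5, 1 base different, had 46.1, 82.1 and 74.7 CPM in BMSC, 109, 96.8 and 168 CPM in COPD, and 43.4, 359 and 51.9 CPM in control libraries. Both were highest in control 2, 1 of the libraries of low listed share. The Val-TAC-1 tiRNA-5, which differs from them at 7 positions, was highest in control 2 by a smaller margin, with 51.5 CPM in COPD 3 and 54.4 CPM in control 2.

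Fragments of tRNA-Ala were of 2 unlike sequences. The 32-nt fragments of Ala-CGC-2 and Ala-CGC-5 differ at 20 positions. Ala-CGC-5 of 30 nt had 259, 84.0 and 182 CPM in BMSC, 218, 213 and 614 CPM in COPD, and 252, 109 and 363 CPM in control libraries. COPD 3 stood highest, and the groups overlapped. In single libraries this fragment had 15.3% to 29.8% of the counts of the 30-nt Glu-CTC-1 fragment, and whether the 2 share reads was not tested. The Ala-CGC-2 tiRNA-5, with the guanine run, had 28.7, 70.0 and 18.9 CPM in BMSC, 37.0, 52.5 and 23.5 CPM in COPD, and 21.7, 32.4 and 26.9 CPM in control libraries, so the groups overlapped. The 32-nt Cys fragment, which starts with such a run too, had 38.5, 31.7 and 31.7 CPM in BMSC, 50.6, 50.5 and 48.2 CPM in COPD, and 33.5, 22.0 and 45.5 CPM in control libraries. Its COPD values lay above all others, with a log2 change of 0.61 ± 0.60 over control (edgeR adjusted p = 0.936).

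The 8 Asp fragments were mostly tRF-5c. The 32-nt Asp-GTC-1-M2 fragment had 172, 246 and 132 CPM in BMSC, 137, 217 and 68.3 CPM in COPD, and 199.9, 208 and 212 CPM in control libraries. All 8 had log2 changes below 0 in COPD over control, with a median of -0.42, beside 42.4% of all tested. The same held in BMSC over control, with a median of -0.51, beside 44.0%. Those comparisons share the control libraries, and the 8 are lengths of near-identical tRNAs, so they are not 8 separate observations. None passed the test. Among the alternatives, 6 to 8 of the 8 were below 0 in COPD over control and 5 to 8 in BMSC over control.

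The 32-nt Pro-AGG-1-M3 fragment led tRNA-Pro, with 108, 57.8 and 198 CPM in BMSC, 211, 264 and 129.9 CPM in COPD, and 151, 225 and 202 CPM in control libraries. Initiator tRNA-Met, which starts protein synthesis, was led by its 31-nt fragment, with 146, 59.7 and 188 CPM in BMSC, 93.3, 137 and 48.2 CPM in COPD, and 128, 71.6 and 161 CPM in control libraries. In both the groups overlapped. The SeC tiRNA-5, from the tRNA that inserts selenocysteine at a stop codon, had 10.3, 33.6 and 10.6 CPM in BMSC, 30.7, 68.5 and 27.99 CPM in COPD, and 33.5, 63.4 and 38.1 CPM in control libraries. BMSC 2 alone reached the other groups. The Arg-CCG-3 tiRNA-5 had 10.3, 21.5 and 24.5 CPM in BMSC, 27.9, 33.5 and 20.2 CPM in COPD, and 10.9, 35.1 and 18.3 CPM in control libraries, again with overlap.

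In COPD lungs over control lungs, 0 of the 46 fragments passed edgeR's test at an adjusted p under 0.05, beside 0.0% of the 191 tsRNAs tested, and 0 passed at an unadjusted p under 0.05, beside 5.76%. DESeq2 called 0 as well. COPD and control CPM did not overlap for 4 fragments, beside 10.4% of all listed (5.18% higher and 5.18% lower): the Leu-TAG-3 tiRNA-5, the 31-nt Lys-CTT-3 and the 32-nt Cys fragment were higher in COPD, and the 29-nt Asp-GTC-3 fragment was lower, though it overlapped on TMM-scaled CPM. Log2 changes were below 0 for 22 of the 46, beside 42.4% of all tested, and the medians were 0.06 and 0.21. The median of the 46 was -0.10 with DESeq2 and -0.02 with library totals. Without control 3 it was 31 of the 46 and 110 of 192 below 0, and both medians turned negative, at -0.29 and -0.11; the median of the 46 was also -0.02 without COPD 2. Over the alternatives 17 to 31 of the 46 were below 0. By length class, 12 of the 16 tiRNA-5 were above 0, with a median of 0.29, and 12 of the 28 tRF-5c, with a median of -0.19. The tiRNA-5 count was 9 with DESeq2 and with library totals, and 6 to 14 over all alternatives.

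Of the positive changes, the smallest p-values belonged to 3 tiRNA-5. The Leu-TAG-3 tiRNA-5 had a log2 change of 1.11 ± 0.57, the iMet tiRNA-5 1.41 ± 0.83 and the Lys-TTT-1 tiRNA-5 1.28 ± 0.82, with edgeR adjusted p of 0.758, 0.866 and 0.866. The iMet tiRNA-5 had 1.41, 7.46 and 7.93 CPM in BMSC, 7.97, 9.78 and 48.2 CPM in COPD, and 3.17, 14.5 and 8.21 CPM in control libraries. The Lys-TTT-1 tiRNA-5 had 1.41, 8.40 and 3.40 CPM in BMSC, 9.10, 9.27 and 41.4 CPM in COPD, and 5.88, 12.4 and 6.72 CPM in control libraries. In both, COPD 3 alone stood far above the rest, and the iMet and Lys-TTT-1 changes were 0.31 and 0.36 without COPD 3.

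The negative changes were led by short tRF-5c. The 29-nt Asp-GTC-3 fragment had 17.9, 3.73 and 5.28 CPM in BMSC, 7.97, 10.3 and 6.72 CPM in COPD, and 21.7, 11.7 and 26.9 CPM in control libraries, a log2 change of -1.22 ± 0.77 for COPD over control (edgeR adjusted p = 0.866). The 29-nt Val-AAC-1-M2 fragment had -0.91 ± 0.82 and the 28-nt Asp-GTC-1-M3 fragment -0.76 ± 0.73, both at an adjusted p of 0.936. These are among the least abundant fragments, and the Val-AAC-1-M2 one had 3 counts in COPD 3.

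In BMSC-treated over COPD lungs, 0 of the 46 passed at an adjusted p under 0.05, beside 0.0% of all tested, with 0 by DESeq2. At an unadjusted p under 0.05 there were 3, beside 13.1% of all tested, each a tiRNA-5 that was lower in BMSC libraries: Leu-TAG-3, Lys-TTT-1 and Val-AAC-1. BMSC and COPD CPM did not overlap for 12 fragments, all lower in BMSC, beside 12.4% of all listed tsRNAs lower in this way and 15.5% in either direction. On TMM-scaled CPM, which level the libraries' tsRNA makeup, 6 were lower without overlap, beside 8.81%. Of the 12, 8 were tiRNA-5, beside 11 of all 32 tiRNA-5 tested that were lower in this way. On TMM-scaled CPM 4 of the 6 were tiRNA-5, beside 6 of those 32. Comparing the 46 with all 191, 31 (67.4%) and 55.0% had log2 changes below 0, and the medians were -0.31 and -0.10. Without control 3 it was 26 of the 46 and 90 of 192, with medians of -0.10 and 0.07. Over the alternatives 26 to 37 of the 46 were below 0, with medians from -0.52 (without BMSC 3) to -0.10, among them -0.48 without COPD 3 and -0.16 without COPD 2.

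The Leu-TAG-3 tiRNA-5, the only Leu fragment among the 46, had 38.5, 53.2 and 25.7 CPM in BMSC, 123, 102 and 190.4 CPM in COPD, and 52.9, 100.5 and 52.2 CPM in control libraries. Every COPD library was above every BMSC library, and control 2 came close to COPD 2. For BMSC over COPD the log2 change was -1.71 ± 0.58 (95% interval -2.89 to -0.53), which missed the threshold over 191 tsRNAs (edgeR adjusted p = 0.140). As the Leu class among 46 summed classes, 10.9% of which were called, the same counts gave an adjusted p of 0.0377. That call was lost without COPD 1 (0.0837), COPD 3 (0.135), BMSC 1 (0.181), control 1 (0.0682) or control 3 (0.116), and without the 3 libraries of low listed share (0.0883).

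The Lys-TTT-1 tiRNA-5 had a log2 change of -2.03 ± 0.86 (edgeR adjusted p = 0.357), with 3 counts in BMSC 1, and the Val-AAC-1 tiRNA-5 -1.37 ± 0.67 (adjusted p = 0.377). Positive changes were led by the 29-nt Val-AAC-1-M2 fragment at 1.39 ± 0.82 (adjusted p = 0.539), the 31-nt iMet fragment at 0.73 ± 0.62 (0.728) and the 32-nt Asp-GTC-1-M2 fragment at 0.45 ± 0.58 (0.844). The Val-AAC-1-M2 fragment had 51.7, 2.80 and 19.6 CPM in BMSC libraries and 15.9, 11.3 and 3.36 CPM in COPD libraries, so the groups overlapped.

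By length class, 14 of the 16 tiRNA-5 had log2 changes below 0 in BMSC over COPD, with a median of -0.70, and 15 of the 28 tRF-5c, with a median of -0.06. Among all 32 tiRNA-5 tested it was 22, with a median of -0.35. The Lys-CTT-2 tiRNA-5, at 0.43 ± 0.55, and the Ala-CGC-2 tiRNA-5, at 0.05 ± 0.62, were the 2 above 0. The number of tiRNA-5 below 0 ran from 12 to 15 over the alternatives, among them DESeq2 and scaling to library totals, with 14 each. Summed over the 14 tiRNA-5 other than the Lys-CTT pair, CPM were 286, 442 and 368 in BMSC libraries and 629.9, 753 and 853 in COPD libraries, against 413, 1083 and 500.4 in control libraries. The sums did not overlap between BMSC and COPD, while control 2 was above every COPD library. These 14 were grouped after their values were seen, so no test is given.

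Beside this, the club cell marker Scgb1a1 in the mRNA libraries was 9073, 34868 and 30968 FPKM in BMSC, 248461, 230399 and 159371 FPKM in COPD, and 6546, 60700.3 and 99536 FPKM in control libraries. COPD libraries were thus above all others for this gene. Of the 9 markers, 4 were lower in BMSC than in COPD libraries without overlap, beside 29.3% of the 13384 listed genes: Scgb1a1, the surfactant genes Sftpb and Sftpa1, and Ager of alveolar type 1 cells. Higher without overlap were 0 markers and 0.441% of genes. In COPD over control libraries 3 of the 9 were higher without overlap, Scgb1a1, Ager and Aqp5, beside 22.5% of listed genes. Lower were 0 markers and 0.456% of genes, so in both comparisons the markers went the way of the non-overlapping genes at large. The labels do not say whether small RNA and mRNA libraries share a mouse. Their part in the fragments' values was not tested.

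In BMSC-treated over control lungs, 0 of the 46 passed at an adjusted p under 0.05, beside 0.0% of all tested, with 0 by DESeq2, and 1 at an unadjusted p under 0.05, beside 3.66%. It was the Val-AAC-1 tiRNA-5, with a log2 change of -1.66 ± 0.68 (edgeR adjusted p = 0.604), and -0.21 without control 2. CPM did not overlap for 2 fragments, the 23-nt Val-AAC-1-M4 and the Val-TAC-1 tiRNA-5, both lower in BMSC, beside 3.63% of all listed lower in this way. On TMM-scaled CPM both overlapped. Log2 changes were below 0 for 35 of the 46, beside 44.0% of all tested, with medians of -0.27 and 0.09. Without BMSC 2 they were below 0 for 25 of the 46 and for 96 of 192 tested, with medians of -0.08 and -0.01. With library totals it was 38 of the 46 and 109 of 191. The median of the 46 ranged from -0.49 to -0.08 over the alternatives, and was also over 1.5 times nearer 0 without control 1 (-0.10), and farther from it without BMSC 1 (-0.42), BMSC 3 (-0.44) or control 2 (-0.42).

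The SeC tiRNA-5 followed at -1.15 ± 0.64 and the 29-nt Asp-GTC-3 fragment at -0.96 ± 0.76, and the Ala-CGC-2 tiRNA-5 led the positive changes at 0.66 ± 0.62, followed by the 31-nt His-GTG-2 fragment and by the Lys-CTT-2 tiRNA-5 at 0.51 ± 0.55, all with an edgeR adjusted p of 0.986. Of these, the Lys-CTT-2 tiRNA-5 had its highest value in BMSC 2, and the lower SeC values were in BMSC 1 and 3. Deviations of BMSC and control libraries from their group means correlated for numbers 1 (r = 0.713) and 2 (r = 0.718), but hardly for number 3 (r = 0.18). BMSC 1 and control 3, of unlike number, reached 0.585, so a pairing was not established. The fit with the replicate number as a block called 0 of the 46 fragments, as the main fit did.

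The share of the listed counts held by the 46 fragments was 2.16%, 5.07% and 1.97% in BMSC libraries, 2.52%, 3.14% and 3.45% in COPD libraries, and 2.09%, 4.37% and 2.73% in control libraries. Differences in the means were 0.033 points or less (two-sided exact permutation p = 1.0 for each; 0.1 is the smallest p that 3 against 3 allow). Wilson 95% intervals of these shares were at most 0.062 points either side. The tiRNA-5 share of the fragments' counts was 74.1%, 88.6% and 71.5% in BMSC, 74.0%, 74.8% and 78.8% in COPD, and 67.5%, 84.1% and 67.2% in control libraries, within 0.651 points. Differences were 2.92 points for COPD over control (exact permutation p = 0.6), 2.20 for BMSC over COPD (p = 0.9) and 5.12 for BMSC over control (p = 0.5). In the last, every BMSC library was above the control of its number. Taking the numbers as pairs, which was not established, gave a paired exact p of 0.25, the smallest that 3 pairs allow.

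Within parents, the tiRNA-5 share separated the 3 libraries of low listed share from the other 6 for Lys (90.4% to 94.3% against 81.8% to 86.2%), for Pro (34.2% to 46.8% against 18.2% to 25.7%) and for iMet (7.84% to 33.9% against 0.845% to 5.51%). For Asp the ranges overlapped, at 7.11% to 8.14% against 6.66% to 18.8%, and likewise for Ala, Cys, His and Val. Wilson intervals reached 0.518 points either side for Lys, 7.78 for Pro and 8.12 for iMet.

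The fragments most alike, those of Gly and Glu of the same types, held 71.0% to 92.8% of the listed counts, and 3.80% to 9.81% of their counts were tiRNA-5, against 67.2% to 88.6% for the 46. The Lys-CTT pair carries most of that share. With each parent weighted alike it was 21.3% to 31.2%, and for His (5.34% to 13.2%) and Asp (6.66% to 18.8%) it overlapped the range of Gly and Glu. The log2 ratio of the 46 to the Gly and Glu sum differed by -0.01 for COPD over control (exact permutation p = 1.0), by -0.03 for BMSC over COPD (p = 1.0) and by -0.04 for BMSC over control (p = 0.9). Listed nuclear fragments of other types were matched to these parents by amino acid, not by single tRNA. They came from Ala, Arg, Cys, iMet, Leu and SeC, and none from Lys, His, Val, Asp or Pro. Of their types, tRF-1, trailers of precursor tRNAs, gave 16. They numbered 27, of which 25 were tested. Of them, 23 had log2 changes above 0 in COPD over control, with a median of 0.71, beside 24 of the 46 and 57.6% of all tested; without COPD 3 it was 18 of 25, with a median of 0.26. In BMSC over COPD 18 were below 0, with a median of -0.34, but without COPD 3 it was 9 of 25, with a median of 0.16. None of the 25 passed at an adjusted p under 0.05.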

How the data were processed

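Lung small RNA libraries of 3 groups were used, with groups and replicate numbers from the labels. Per the labels' protocols, 1.5 µg of Trizol RNA per sample was pretreated to remove modifications that hinder library making, which affects which fragments are read. The submitters' processing notes name Bowtie, cutadapt, FastQC and StringTie and the build mm10. Neither versions nor roles nor mismatch settings are given in the sources used here. The authors deposited raw tsRNA counts and the same tsRNAs in CPM, per the file headers; dividing one by the other gave each library's total. The mRNA values the authors deposited are FPKM and served for the marker check only. Genome positions of the parent tRNA genes were not used here.

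Counts were tested with edgeR 4.0.16 (R 4.3.3; quasi-likelihood, TMM, filterByExpr, library size from listed tsRNAs, 9 libraries in one fit), which kept 191 tsRNAs, all 46 fragments among them, at a biological coefficient of variation of 0.545. Benjamini-Hochberg adjustment ran over all 191, or over 46 classes of summed counts by compartment, fragment kind and parent. DESeq2 1.42.0 and other alternatives were computed. The anticodon was located in the deposited parent sequences. Shares were compared by exact permutation tests (scipy 1.17.1; Python 3.11.15, pandas 2.3.3, numpy 2.4.6). The fits were tested on simulated data, with recovery required only for large changes at a spread below that of these data. That does not show how small a change could be found here. Fragments, lists and comparisons were chosen with earlier results of these data known. Fragments named were the most abundant of each parent, any called, and in each comparison the 3 of smallest p in each direction; those without overlap between groups, and members of compared sequence pairs, were named besides. Deviations of same-numbered BMSC and control libraries from their group means had r = 0.713, 0.718 and 0.18. Unlike-numbered ones reached 0.585, so a pairing was not established. COPD libraries did not pair with either.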

Additional observations from a re-analysis of the deposited data

How the results depend on the processing

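No fragment was called by edgeR or DESeq2 in any comparison under the 16 alternatives run for each. Unadjusted counts ran from 0 to 4 (COPD over control), 1 to 8 (BMSC over COPD) and 0 to 4 (BMSC over control), the highest in the first 2 without the 3 libraries of low listed share. With the replicate number as a block, 0, 3 and 1 fragments had an unadjusted p under 0.05, as without it, and 0 were called. With only the 2 groups compared and the replicate block, an alternative added after seeing the data, they were 0, 1 and 4, again with 0 called, and the Leu sum in BMSC over COPD was -1.65 (adjusted p = 0.356). That sum also missed the threshold with library totals (-1.83, adjusted p = 0.0786) and with 2 groups only (-1.70, adjusted p = 0.179); over all alternatives the adjusted p ran from 0.0124 to 0.356, and 7 of 16 passed. Scaling moved the median log2 change of all tsRNAs: it was 0.21, -0.10 and 0.09 with TMM, 0.08, -0.27 and -0.13 with library totals, and 0.05, -0.01 and 0.06 with DESeq2, for COPD over control, BMSC over COPD and BMSC over control.

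Small differences of shares turned sign. The member share of library totals differed by 0.0715, -0.0325 and 0.039 points in that order, and without the 3 libraries of low listed share by 0.41 and -0.76 points in the first 2. The tiRNA-5 share with each parent weighted alike differed by -2.32 points for BMSC over COPD and -1.08 for BMSC over control, and by -1.62 for BMSC over COPD without the 3 libraries. The ratio to Glu alone differed by 0.0756, 0.105 and 0.18, and that to both by 0.24 for COPD over control without the 3 libraries. With single libraries left out, the member share ran from -0.52 to 0.62, -0.97 to 0.58 and -1.001 to 0.65 points, the tiRNA-5 share from 0.05 to 8.52, -3.07 to 5.49 and -0.15 to 10.7 points, and the ratio from -0.29 to 0.37, -0.59 to 0.29 and -0.60 to 0.34. The 31-nt His-GTG-2 change for BMSC over control ran from -0.33 to 1.19, and the Lys sum from -0.20 to 0.27 (COPD over control) and -0.0103 to 0.32 (BMSC over COPD), and the second of these was -0.0083 without the 3 libraries. The cause was not tested. Libraries of 893028 to 2679933 reads leave fragments under about 10 CPM resting on few counts.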
